A study of Mus musculus with 6 samples.

Results

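Scn4a, Clcn1, Kcnj2, Kcnj11, Atp1b1 and Fxyd1 encode channels and sodium pump subunits of the sarcolemma, the surface membrane of the muscle fibre. They were taken by symbol from the deposited gene table, where each matched 1 row, so that 6 of 22036 genes are described here. All 6 passed the filter on low counts and were among the 9229 genes tested. The samples were skeletal muscle of Prr14 knockout mice (labelled KO), taken 1 month after they were injected with AAV, a virus used to deliver genes. The treatment is labelled MEF2C-GFP in 3 libraries, the MEF2C group, and GFP in the other 3, the GFP group. MEF2C is a transcription factor of muscle and GFP a fluorescent marker protein. Both groups carry the knockout and a virus, and no wild-type or uninjected muscle was part of the comparison. The labels name neither the muscle, the age nor the promoter that drives the virus's gene, and do not say that the replicates of a group are separate animals, so that p-values measure the spread between these libraries.

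A muscle action potential begins when voltage-gated sodium channels open, and it is ended by sodium channel inactivation and potassium efflux. Skeletal muscle differs from nerve in that chloride channels carry much of the resting conductance, which steadies the membrane and lets it repolarise. Inward rectifier potassium channels hold the resting potential, ATP-sensitive potassium channels open when cellular ATP runs low, and the Na,K-ATPase pumps the sodium and potassium back across the membrane after activity. The pump is an alpha subunit that carries out the transport, a beta subunit needed for its folding and delivery to the membrane, and a small FXYD protein that tunes its affinity for sodium.

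Libraries were made by Nanopore PCR-cDNA sequencing, and the genes of the table held between 3370833 and 3900617 reads per library. Levels are CPM, the usual depth-corrected read count, with TMM scaling of the library totals, and values for single libraries are in the order of replicates 1, 2 and 3. The muscle fibre markers Acta1, Ckm, Des, Ttn, Cav3 and Dmd summed to between 72451 and 81009 CPM in the MEF2C group and to between 84313 and 106896 CPM in the GFP group. These sums did not overlap, 1 of the 6 markers had a positive log2 fold change and 0 were called, and the part of this difference in the members' levels was not tested. Of 5 neuron markers, Snap25, Rbfox3, Chat and Nefl had 0 reads in every library. Prr14, the gene labelled as knocked out, had 7.77, 5.73 and 4.84 CPM in the MEF2C libraries and 3.26, 3.83 and 3.98 CPM in the GFP libraries. Where its deletion lies is not given in the labels, so that these reads do not check the genotype, and its groups did not overlap. Mef2c, the gene raised by the virus in the study's design, stood at 234, 196 and 371 CPM in the MEF2C libraries and at 223, 261 and 236 CPM in the GFP libraries. MEF2C replicate 1 lay among the controls for this gene, replicate 2 below them and replicate 3 above them. Whether reads of the viral gene were counted under Mef2c is not given in the labels, and directions below are those of the libraries labelled MEF2C. Slow-fibre markers (9 genes) summed to 1694, 1665 and 422 CPM in the MEF2C libraries against 198 to 265 CPM in the GFP libraries. Fast-fibre markers (11 genes) summed to between 138301 and 144759 CPM in the MEF2C group and to between 184969 and 212157 CPM in the GFP group. Of these 11 markers 0 had a positive log2 fold change and 3 were called, against 7 called among all 9229 tested genes. Neutrophil markers (7 genes) summed to 1200 CPM in MEF2C replicate 1 and to 74.5 CPM or less elsewhere. Erythroid markers (5 genes, all with positive log2 fold changes and 0 called) summed to 8631, 4393 and 4854 CPM in the MEF2C libraries. In the GFP libraries they summed to 3723, 3080 and 4166 CPM, without overlap between the groups. In bulk muscle, fewer cells of a type and less RNA per cell cannot be told apart.

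None of the 6 genes passed the test between the groups, in either direction. Over all genes edgeR's quasi-likelihood test called 7 of 9229, which is 0.0758%. Kcnj11 and no other member had an unadjusted p under 0.05, and it was lower in the libraries labelled MEF2C, a class that held 2.35% of all tested genes. Scn4a, Clcn1, Kcnj2 and Kcnj11 had negative log2 fold changes and the pump subunits Atp1b1 and Fxyd1 positive ones. The median over the 6 was -0.12, against 0.01 over all tested genes. With scaling to library totals in place of TMM the median of all genes moved to 0.14, that of the 6 moved to 0.0046, and Scn4a turned positive. In CPM the 2 groups overlapped for each of the 6 genes, while 11.1% of all tested genes had groups that did not.

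**Figure D1:**
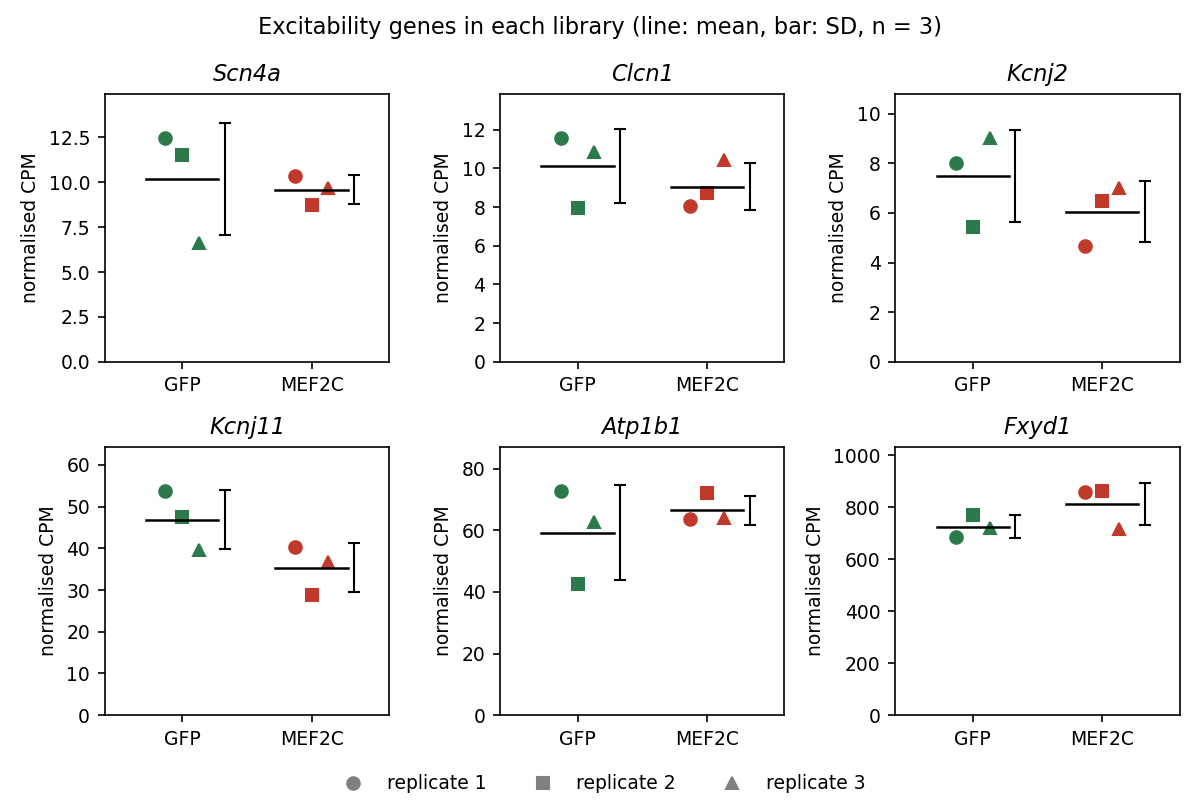
Normalised CPM (vertical axes, each starting at 0) of the 6 genes in the 3 GFP and 3 MEF2C libraries; symbols mark the replicate, lines the group mean and bars the SD. The groups overlap in every panel, and Kcnj11 comes nearest to separating, with GFP replicate 3 at 39.5 CPM just under MEF2C replicate 1 at 40.4 CPM.

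Scn4a encodes the pore-forming subunit of Nav1.4, the sodium channel that starts the action potential in adult muscle (ENSMUSG00000001027, GRCm38 chromosome 11, 106318592 to 106353288, minus strand, protein-coding). It stood at 10.4, 8.72 and 9.68 CPM in the MEF2C libraries and at 12.4, 11.5 and 6.63 CPM in the GFP libraries. The MEF2C values all lay inside the range of the GFP values, whose highest and lowest libraries were both controls. The group means were 9.59 ± 0.828 and 10.2 ± 3.12 CPM (SD, n = 3 per group). The log2 fold change was -0.08 ± 0.27 (SE), with a 95% confidence interval from -0.65 to 0.49 and an edgeR adjusted p of 0.993. These levels rest on 25 to 42 reads per library, for which counting alone gives a coefficient of variation of 16.6%, beside 22.5% observed within groups. Leaving out GFP replicate 1 gave 0.083, leaving out replicate 2 of that group gave 0.015, and leaving out its replicate 3 gave -0.32.

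Clcn1 encodes ClC-1, the chloride channel that carries most of the resting chloride conductance of the fibre and whose loss causes myotonia (ENSMUSG00000029862, chromosome 6, 42286685 to 42315756, plus strand). Its levels were 8.03, 8.72 and 10.4 CPM in the MEF2C libraries, and 11.6, 7.98 and 10.9 CPM in the GFP libraries. All 3 MEF2C libraries lay between the lowest and the highest GFP library. With means of 9.05 ± 1.22 and 10.1 ± 1.90 CPM (SD, n = 3 per group), the log2 fold change was -0.17 ± 0.25, with an interval from -0.69 to 0.36 (edgeR adjusted p = 0.993). Between 25 and 43 reads were counted per library, and the within-group variation of 16.3% was no larger than the 16.7% that counting gives. The 3′ end of Clcn1 overlaps Fam131b on the other strand, which had 3 to 18 reads per library, and whether the counting used strand is not given in the sources used here.

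The window before the Clcn1 start site is printed because, of the 5 members with a RefSeq promoter window, it alone held a match to the binding motif of MEF2, the factor delivered here. The stretch lies at chr6:42286550-42286649 (GRCm38.p6, plus strand), from 135 to 36 bases before the start site, with motif matches in capitals: E-boxes begin 125, 101 and 69 bases, and the MEF2 motif 51 bases, before the start site.
Clcn1: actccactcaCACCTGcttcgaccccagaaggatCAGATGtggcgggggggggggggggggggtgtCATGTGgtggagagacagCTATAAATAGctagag
The MEF2 motif was searched as its 10-letter consensus and the E-box as CANNTG. This is the general motif of basic helix-loop-helix factors, of which the myogenic ones are a part. Both motifs read the same on either strand. Windows run from 250 bases before to 50 after each start site. A MEF2 match was present in 3.19% and an E-box in 72.3% of 32851 such windows. A match is a description of letters, not of binding, and Clcn1 did not pass the test.

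Kcnj2 encodes Kir2.1, an inward rectifier that holds the resting potential near that of potassium (ENSMUSG00000041695, chromosome 11, 111066164 to 111076821, plus strand). It had the fewest reads of the 6, between 17 and 34 per library. In MEF2C replicates 1, 2 and 3 it stood at 4.66, 6.47 and 7.02 CPM, and in the GFP libraries at 8.0, 5.42 and 9.01 CPM. MEF2C replicate 1 was the lowest of the 6 libraries and GFP replicates 1 and 3 the highest, with GFP replicate 2 among the MEF2C values. The means were 6.05 ± 1.23 and 7.48 ± 1.85 CPM (SD, n = 3 per group). The log2 fold change of -0.31 ± 0.30 had an interval from -0.94 to 0.32 (edgeR adjusted p = 0.993). That interval spans ratios from 0.520 to 1.25, and the data leave room for a change within that range. The log2 fold change was negative in all 15 alternatives, from -0.49 to -0.15.

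A pair of E-boxes, each CANNTG, was found in the Kcnj2 window, shown with 8 bases on either side. The first lies at chr11:111065950-111065971 and the second at chr11:111066072-111066093 (GRCm38.p6, plus strand), where the capitals begin 206 and 84 bases before the start site.
Kcnj2, distal: aggctaggCAGCTGgaggaggt
Kcnj2, proximal: agcgcagcCACGTGcgctccga
The windows of Scn4a, Atp1b1 and Fxyd1 held neither motif. Matches to GGAAA, the NFAT core, and to CATTCC, the MCAT element, searched on both strands, were found in none of the 5 windows, against 61.3% and 14.7% of all windows. No match says only that these letters are not in the window, and Kcnj11 was not matched in the table of windows. The Scn4a and Fxyd1 windows lie inside the GENCODE gene bodies, since RefSeq starts those genes further downstream. Base composition set Atp1b1 apart: its window was 71.0% G or C with 31 CpG dinucleotides, against medians of 52.7% and 7 over all windows. The Kcnj2 window had 66.7% and 18, while those of Scn4a (63.0%), Clcn1 (59.0%) and Fxyd1 (58.7%) held 4, 3 and 6 CpG.

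Kcnj11 encodes Kir6.2, the pore of the ATP-sensitive potassium channel, which couples the membrane to the energy state of the fibre (ENSMUSG00000096146, chromosome 7, 46093953 to 46100764, minus strand). Its levels were 40.4, 28.9 and 36.8 CPM in the MEF2C libraries, and 53.6, 47.5 and 39.5 CPM in the GFP libraries. MEF2C replicate 1 and GFP replicate 3 crossed by about 1 CPM, and the remaining libraries were ordered by group. The means of 35.4 ± 5.90 and 46.9 ± 7.09 CPM (SD, n = 3 per group) stood in a ratio of 0.754. The log2 fold change was -0.41 ± 0.17, with an interval from -0.78 to -0.04, an unadjusted p of 0.034 and an edgeR adjusted p of 0.856. By unadjusted p it ranked 365th of the 9229 genes, and it did not pass the correction. Its sign was the same in all 15 alternatives, with log2 fold changes from -0.52 without GFP replicate 3 to -0.28, the latter both with library totals and without MEF2C replicate 2. The unadjusted edgeR p under those last 2 settings was 0.137 and 0.152. It was 0.127 without GFP replicate 1 and 0.0772 without GFP replicate 2, and DESeq2's Wald test gave 0.0630. In the remaining alternatives, by edgeR or limma-voom, the unadjusted p lay between 0.0159 and 0.0431. The summed fast-fibre and muscle fibre markers were also lower in every MEF2C library than in every GFP library. Within the MEF2C group the fast-fibre sums, 144759, 138301 and 142169 CPM, had the same order of libraries as Kcnj11. Within the GFP group replicate 3 was lowest for both. GFP replicate 2 had the most fast-fibre marker reads, at 212157 CPM, and GFP replicate 1 the most Kcnj11. The part of fibre markers in the Kcnj11 difference was not tested.

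Kcnj11 protein works in a complex with a sulfonylurea receptor, and the partner transcripts are given beside it; differences between genes in their change were not tested. Abcc9, which encodes the SUR2 receptor of muscle, stood at 21.2, 13.9 and 25.4 CPM in the MEF2C libraries and at 19.9, 18.5 and 21.5 CPM in the GFP libraries (log2 fold change 0.02 ± 0.22, edgeR adjusted p = 0.998). Abcc8, the SUR1 receptor, had 2 to 8 reads per library and was not tested. Kcnj8, the Kir6.1 pore known from vascular smooth muscle, gave -0.01 ± 0.15 (edgeR adjusted p = 0.997), with 30.5 to 36.1 CPM over the 6 libraries. Smooth muscle and pericyte markers (7 genes, all with positive log2 fold changes and 0 called) summed to 949, 953 and 1020 CPM in the MEF2C libraries and to 728, 936 and 811 CPM in the GFP libraries, without overlap, and their part in the level of Kcnj8 was not tested. Kcnj12, which encodes Kir2.2 and forms channels with Kir2.1, stood at 16.6, 9.96 and 10.2 CPM in the MEF2C and at 8.30, 9.89 and 8.48 CPM in the GFP replicates. Its groups did not overlap, though MEF2C replicate 2 and GFP replicate 2 nearly met, and its log2 fold change of 0.46 ± 0.26 did not pass (edgeR adjusted p = 0.928).

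Atp1b1 encodes the beta-1 subunit of the Na,K-ATPase, which carries the newly made alpha subunit to the membrane and is known as the prevailing beta form of slow oxidative muscle (ENSMUSG00000026576, chromosome 1, 164437109 to 164458355, minus strand). It stood at 63.7, 72.0 and 63.9 CPM in the MEF2C libraries, and at 72.6, 42.4 and 62.5 CPM in the GFP libraries. GFP replicate 2 was low, and the other 5 libraries lay between 62.5 and 72.6 CPM. The means were 66.5 ± 4.71 and 59.2 ± 15.4 CPM (SD, n = 3 per group), with a log2 fold change of 0.17 ± 0.18, an interval from -0.21 to 0.55 and an edgeR adjusted p of 0.993. The positive sign rested on GFP replicate 2, without which the log2 fold change was -0.02. GFP replicate 2 also had the lowest slow-fibre marker sum, 198 CPM, beside 208 and 265 CPM in GFP replicates 1 and 3. GFP replicate 1, with the next lowest sum, had the highest Atp1b1 of all libraries. The MEF2C libraries had slow-fibre sums of 1694, 1665 and 422 CPM. The part of those markers in the level of Atp1b1 was not tested. Atp1b1 overlaps Nme7 on the other strand, which had 5 to 14 reads per library beside 133 to 289 for Atp1b1.

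Fxyd1 encodes phospholemman, the main FXYD protein of heart and skeletal muscle, which restrains the pump until it is phosphorylated (ENSMUSG00000036570, chromosome 7, 31051678 to 31057199, minus strand). With 2311 to 3458 reads per library it was the most deeply counted of the 6. It stood at 858, 861 and 718 CPM in the MEF2C libraries, and at 685, 772 and 722 CPM in the GFP libraries. MEF2C replicates 1 and 2 were above every control, and MEF2C replicate 3 fell among them. The means of 812 ± 81.7 and 726 ± 43.7 CPM (SD, n = 3 per group) gave a log2 fold change of 0.16 ± 0.12, with an interval from -0.09 to 0.42 (edgeR adjusted p = 0.965). Within groups the variation was 8.29%, where counting alone gives 1.87%.

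The Fxyd1 difference ranged from 0.05 to 0.29 over the scalings tried. As CPM without TMM it stood at 862, 904 and 778 in the MEF2C libraries and at 686, 697 and 698 in the GFP libraries. On that scale the groups did not overlap, which held for 1 of the 6 members and for 12.7% of all tested genes with the MEF2C group higher. The log2 fold change there was 0.29 ± 0.09 (unadjusted p = 0.00855, edgeR adjusted p = 0.473), against a median of 0.14 over all genes. After a correction on transcript length it was 0.05 ± 0.11 (edgeR adjusted p = 0.98); at 0.668 kb the Fxyd1 transcript is the shortest of the 6. Without MEF2C replicate 3 it was 0.24 ± 0.11 (unadjusted p = 0.0422, edgeR adjusted p = 0.716). MEF2C replicates 1 and 2, where Fxyd1 was highest, also had the most slow-fibre marker reads. GFP replicate 2 had the lowest slow-fibre sum, 198 CPM, and Fxyd1 at 772 CPM. MEF2C replicate 3 had a sum of 422 CPM and Fxyd1 at 718 CPM. The part of those markers in the level of Fxyd1 was not tested.

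**Figure D2:**
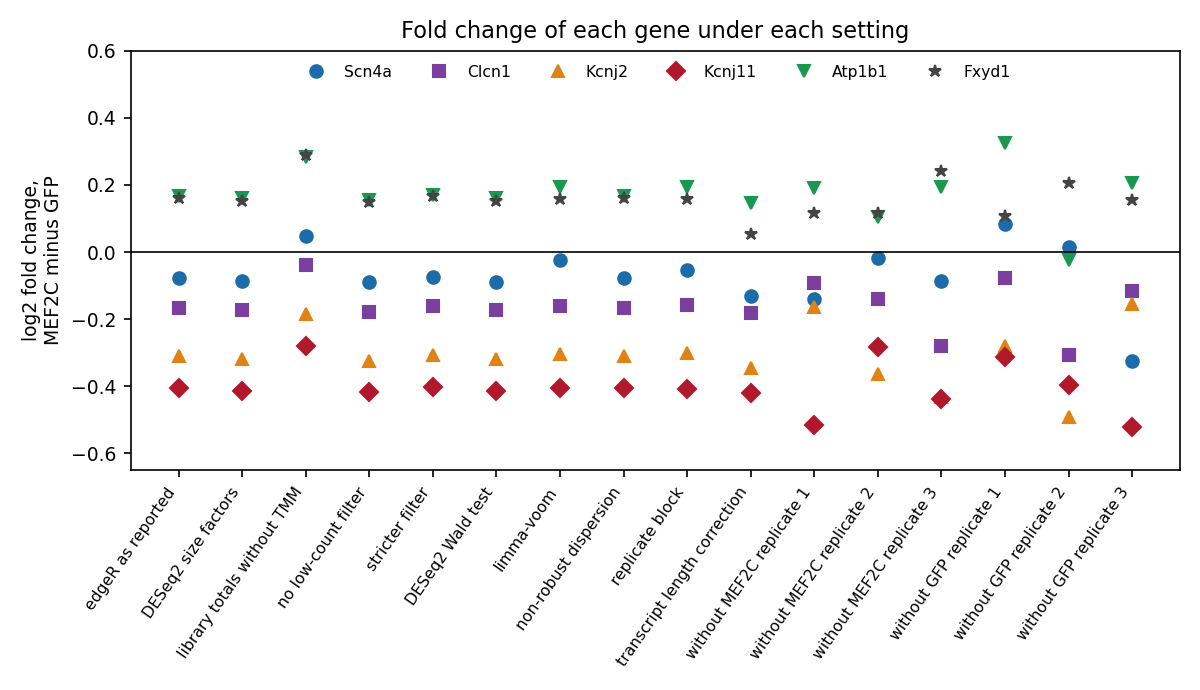
Log2 fold change of each gene, MEF2C minus GFP (vertical axis), in edgeR as reported and under 15 other settings (horizontal axis). Clcn1, Kcnj2 and Kcnj11 stay below 0 and Fxyd1 above 0 in all of them, while Scn4a turns positive in 3 and Atp1b1 negative in 1.

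Levels were ordered per kilobase of the longest annotated transcript, as means ± SD over the 6 libraries. Fxyd1 was highest, at 1152 ± 113 CPM per kb, followed by Atp1b1 at 24.4 ± 4.23 and Kcnj11 at 13.1 ± 2.74 CPM per kb. Clcn1 stood at 2.71 ± 0.436, Scn4a at 1.5 ± 0.313 and Kcnj2 at 1.24 ± 0.295 CPM per kb. Each gene exceeded the next in all 6 libraries, except Scn4a and Kcnj2, which kept that order in 5 of 6 and did not differ beyond their spread. In CPM without the length, a full-length cDNA counts once whatever its length. On that scale Fxyd1 had a mean of 769 CPM and Atp1b1 one of 62.9 CPM, a smaller gap than per kb. Atp1b1 was above Kcnj11 in 5 of 6 libraries there, and Clcn1 above Scn4a in only 2 of 6. The order of Clcn1 and Scn4a thus depends on the scale. The longest transcripts measured 6.598 kb for Scn4a, 5.444 kb for Kcnj2, 3.545 kb for Clcn1, 3.142 kb for Kcnj11 and 2.58 kb for Atp1b1.

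Among the FXYD genes Fxyd1 took 83.7% to 88.6% of reads and 95% to 96.6% per kb. Beta-subunit reads were shared more evenly among genes. Atp1b2, the beta form known from fast fibres, stood at 143, 155 and 260 CPM in the MEF2C libraries and at 183, 208 and 137 CPM in the GFP libraries, with MEF2C replicate 3 the highest (log2 fold change 0.08 ± 0.25, edgeR adjusted p = 0.993). Atp1b3 had 39.4, 40.3 and 44.0 CPM against 49.8, 45.6 and 54.9 CPM. Its groups did not overlap, and its log2 fold change of -0.28 ± 0.15 did not pass (edgeR adjusted p = 0.928).

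Ratios within a library remove the scaling between libraries, and 3 were compared, of which 2 are described. Atp1b1 made up 25.8%, 26.8% and 17.2% of beta-subunit reads in the MEF2C libraries and 23.7%, 14.2% and 24.4% in the GFP libraries. MEF2C replicate 3 and GFP replicate 2 were low and the other 4 libraries close together, across the groups. The exact permutation test on the log2 ratio gave p = 0.5 (0.75 adjusted over the 3 ratios), where 3 libraries against 3 cannot go below 0.1; all such tests were 2-sided. Clcn1 gave 0.775, 1.00 and 1.07 reads per Scn4a read in the MEF2C replicates and 0.929, 0.694 and 1.64 in the GFP replicates, with GFP replicate 3 the highest (exact permutation p = 0.9, adjusted 0.9).

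**Figure D3:**
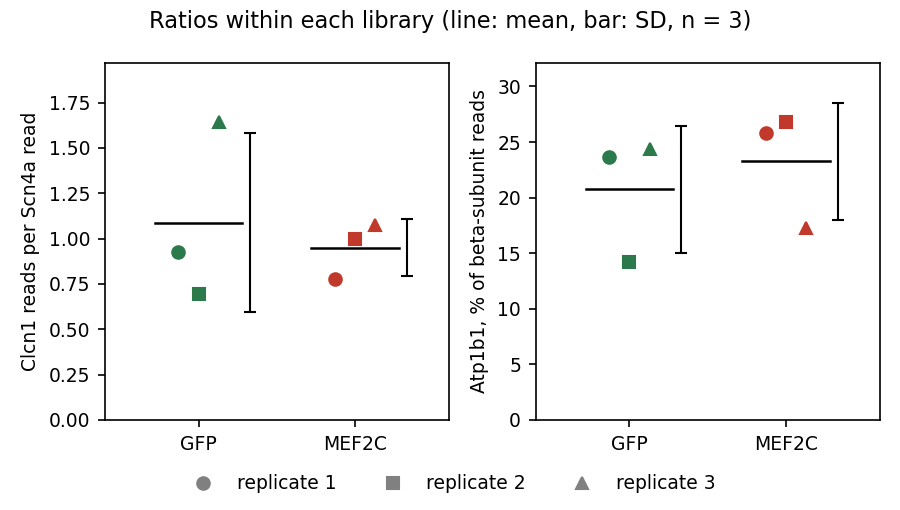
Clcn1 reads per Scn4a read and the percentage of beta-subunit reads from Atp1b1 (vertical axes, from 0) in each GFP and MEF2C library; lines are means and bars SD. The groups overlap in both panels, and GFP replicate 3 is highest in the left one, at 1.64.

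A wider list of 70 genes of membrane excitability, which includes the 6, was read from the same fit. In it 40 genes were tested, 0 were called higher and 0 lower by edgeR, and 1 higher and 4 lower had an unadjusted p under 0.05. DESeq2 and limma-voom also called 0. The median log2 fold change of the 40 was 0.03, with 22 positive, beside 0.01 and 52.2% positive over all tested genes. Of all tested genes 3.36% were higher and 2.35% lower with an unadjusted p under 0.05. In 6 of the 40 the groups did not overlap, 2 with the MEF2C group higher and 4 with it lower, beside 11.1% of all tested genes in either direction. The 30 genes not tested had at most 20 reads in any library, and Kcna4, Kcne1 and Fxyd4 had 0 in all.

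A partner of the sodium channel, Scn4b, was among the 4 genes with a lower level at an unadjusted p under 0.05. This accessory beta subunit stood at 59.3, 63.0 and 65.3 CPM in the MEF2C libraries and at 101, 79.8 and 79.0 CPM in the GFP libraries. Every MEF2C library was below every GFP library, and the log2 fold change was -0.47 ± 0.14 (unadjusted p = 0.0056, edgeR adjusted p = 0.659). All 5 tested genes of the sodium channel list, Scn4a included, had negative values, and with library totals 3 of the 5 were positive, while Scn4b was negative in each of the 15 alternatives. Also among the 4, with Kcnj11, was Prkcq, a protein kinase C isoform of muscle, at 27.5, 21.7 and 22.0 CPM against 38.2, 29.0 and 36.8 CPM (log2 fold change -0.55 ± 0.18, edgeR adjusted p = 0.684).

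Of the other roles, 4 of 5 tested voltage-gated potassium channel genes and 5 of 6 transporters had positive log2 fold changes, and none passed the test. Kcnc1 (Kv3.1), which repolarises excitable membranes, gave 0.32 ± 0.25 (edgeR adjusted p = 0.976). Kcnma1, the large-conductance calcium-activated channel, gave 0.51 ± 0.34 without overlap between groups, at 2.38 to 4.40 CPM, beside the higher smooth muscle and pericyte marker sums of the MEF2C libraries, whose part was not tested, and Kcnn1, a small-conductance one, -0.20 ± 0.43 (adjusted p = 0.948 and 0.993). Atp2b4, a calcium pump of the surface membrane, gave 0.41 ± 0.29, and Nedd4, a ubiquitin ligase, 0.15 ± 0.14 (edgeR adjusted p = 0.956 and 0.993). The FXYD genes Fxyd6 and Fxyd2 gave 0.22 ± 0.24 and 0.15 ± 0.24 (both edgeR adjusted p = 0.993). All 5 tested FXYD genes were positive under each of the 4 scalings tried, of which library totals made 72.6% of all tested genes positive. Signs changed without single libraries: Fxyd6 was at -0.096 without MEF2C replicate 1, and Fxyd2 at -0.027 without GFP replicate 1.

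**Figure D4:**
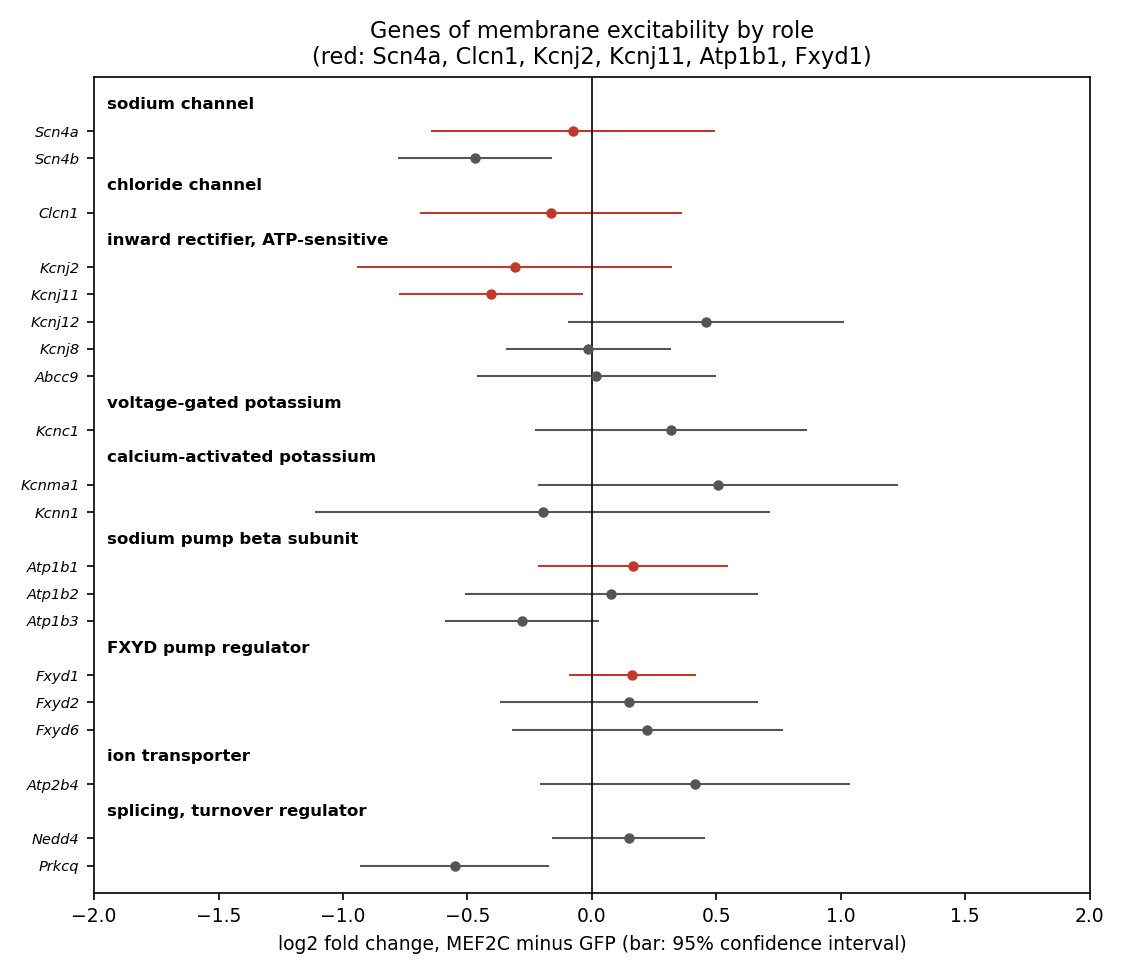
Log2 fold change, MEF2C minus GFP, with 95% confidence interval (horizontal axis) for the 20 tested genes described in the text, grouped by role, with Scn4a, Clcn1, Kcnj2, Kcnj11, Atp1b1 and Fxyd1 in red. Intervals of Kcnj11, Scn4b and Prkcq lie below 0, and none of the 20 passed the correction over all genes.

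Likeness to each member was measured as Pearson's r of log2 CPM over the 6 libraries, among 6982 genes with a mean of at least 20 counts, and is a description that any 6 points allow easily. Atp1b1 was most like Lrp1 (r = 0.995) and Iws1 (r = 0.99), both also lowest in GFP replicate 2. Kcnj11 was most like Dhdh (r = 0.994) and Pnpla7 (r = 0.988), which had their lowest level in MEF2C replicate 2 as well. Scn4a was most like Klhl7 and Znfx1 (r = 0.988 and 0.981), both lowest in GFP replicate 3. For Clcn1 these were Mvb12a and Entpd6 (r = 0.984 and 0.98), for Kcnj2 Mindy1 and Tnfaip2 (both r = 0.984), and for Fxyd1 Ppip5k1 and Plbd1 (both r = 0.981). Between 29 genes, for Scn4a, and 118 genes, for Fxyd1, had an r over 0.9 with a member.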

How the data were processed

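Per the file headers, the deposited columns are gene-level counts and CPM of the 6 libraries. The authors' counts were used as deposited, and the deposited CPM served only to recover the totals behind them, of which listed genes made up 95.6% to 96.4%. The submitters' processing notes list GRCm38, minimap2 and DESeq2 1.6.3 and assign none of them a step; which counter, annotation and strand setting were used is not stated there. The protocol has 14 PCR cycles and names no molecular identifiers. There were 30 rows that named no gene; they held 0 counts and were left out. No pair of libraries of a group agreed within sampling noise (chi-square per degree of freedom 4.95 to 10.3).

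Genes were tested across the whole table with edgeR 4.0.16 in R 4.3.3 (quasi-likelihood, robust, filter by group, TMM, no covariate), with Benjamini-Hochberg adjustment and calls under 0.05. Standard errors and intervals came from the F statistic. The fit was tested on simulated data. Lengths and coordinates came from GENCODE vM21 (GRCm38), promoter windows from RefSeq (GRCm38.p6), where 5 of 6 members matched. Alternatives were DESeq2 1.42.0 (size factors, Wald test), limma-voom (limma 3.58.1), library totals, 2 other filters, non-robust dispersion, a replicate block, a loess correction on transcript length (span 0.3) and leaving out each library.

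The members and gene lists were chosen with earlier results of these data known. Named beyond the members were up to 2 tested genes per role list by smallest unadjusted p, named partners of the members such as Atp1b2, Atp1b3, Kcnj12 and Abcc9, and the 2 genes most like each member; some genes that the rule names, and 1 of 3 ratios, are not reported here. Abcc8, Kcna4, Kcne1, Fxyd4, Fam131b, Nme7, Mef2c and Prr14 were not part of that rule and were chosen after their values were seen.

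Summed marker lists not given with the results ranged, over the 6 libraries, as follows: endothelial (6 genes) from 208 to 260 CPM, Schwann cell (7) from 223 to 337 CPM, fibro-adipogenic (5) from 1588 to 2088 CPM, adipocyte (5) from 458 to 738 CPM, macrophage (5) from 96.6 to 157 CPM, satellite cell (3) from 12.5 to 18.8 CPM and transporting epithelium (4, with Umod, Slc12a1 and Slc12a3 at 0 reads) from 7.41 to 12.2 CPM.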

Additional observations from a re-analysis of the deposited data

How the results depend on the processing

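The count of 0 members called, and of 0 called in the wider list, held in each of the 15 alternatives; DESeq2 gave no adjusted p for Scn4a, Clcn1 and Kcnj2. The count of 7 genes called over the whole table did not: it was 35 with no low-count filter, 3 with the stricter filter, 27 by DESeq2's Wald test, 3 by limma-voom, 0 with non-robust dispersion (557 at an unadjusted p under 0.05), 2 with the replicate block, and 0 to 22 when each library was left out, the 0 without GFP replicate 3 (386 at an unadjusted p under 0.05) and the 22 without MEF2C replicate 3. The split of 3 higher and 4 lower became 4 and 2 with library totals. The cause of these shifts was not tested.

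Member values that changed sign were Scn4a, at 0.049 with library totals and between -0.32 and 0.083 without single libraries, and Atp1b1, between -0.024 and 0.32 without single libraries. Without single libraries the log2 difference of Clcn1 reads per Scn4a read ran from -0.39 to 0.23, and that of the Atp1b1 share from -0.074 to 0.38. Counting reads per kb was chosen after seeing the data and changed no sign.

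The replicate block left Kcnj11 at -0.41 and Fxyd1 at 0.16. For same-numbered libraries the r of their deviations from the group mean ran from -0.25 to 0.05, and for other pairs from -0.12 to 0.32. Deviations of 3 libraries from their own mean constrain one another, so these values cannot decide whether the number pairs libraries. Below about 40 reads per library, as for Scn4a, Clcn1 and Kcnj2, the confidence intervals leave room for changes of 1.25-fold or more in either direction.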
